A study of Mus musculus with 8 samples.

Results

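The enzymes that start mucin-type O-glycans and build their first branches were followed across colon epithelial cells of 4 mouse genotypes. The set was chosen by gene symbol and held 10 genes, 5 of initiation (Galnt1, Galnt3, Galnt4, Galnt7, Galnt12), 2 of core 1 (C1galt1, C1galt1c1), 2 of core 2 (Gcnt1, Gcnt3) and 1 of core 3 (B3gnt6), out of 24346 gene symbols measured. All 10 had a mean of at least 1 FPKM (fragments per length of transcript and per depth of library) over the libraries, as had 11537 genes in all, which were tested together. The mice were St6galnac6-/-, for a sialyltransferase, B3galt5D116A, for the D116A substitution in a galactosyltransferase, B3gnt7-/-, for a chain-extending N-acetylglucosaminyltransferase, and wild-type. All were C57BL/6J, untreated, with age not stated, and each genotype was represented by 1 male and 1 female library. Neither the number of animals behind a library nor the deleted part of either knocked-out gene is stated, and a p-value here reflects spread among libraries alone, which may be technical.

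Mucin-type O-glycosylation begins when a polypeptide GalNAc-transferase of the Galnt family links N-acetylgalactosamine to serine or threonine. C1galt1 then adds galactose to give core 1, and depends on C1galt1c1 (Cosmc), its chaperone in the endoplasmic reticulum. B3gnt6 acts on the same GalNAc and adds N-acetylglucosamine to give core 3. Gcnt1 and Gcnt3 add a branch to core 1 to give core 2, and Gcnt3 can also branch core 3 into core 4. In the gut these glycans coat Muc2 and other mucins, and mice that lack intestinal core 1 or core 3 glycans are known for an impaired mucus barrier and susceptibility to colitis.

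The core enzymes have compact coding regions. In the GENCODE M21 annotation of mm10 the coding sequences of C1galt1c1 (chromosome X from 38630785 to 38635087, minus strand), B3gnt6 (chromosome 7 from 98192417 to 98199481, minus strand), Gcnt1 (chromosome 19 from 17326141 to 17372844, minus strand) and Gcnt3 (chromosome 9 from 70031496 to 70038088, minus strand) each lie in 1 coding exon. C1galt1 (chromosome 6 from 7844842 to 7875687, plus strand) has 3 coding exons. Galnt4 (chromosome 10 from 99108159 to 99113247, plus strand) is a gene of 1 exon that lies inside Poc1b on the same strand. Galnt3 (chromosome 2 from 66082766 to 66124994, minus strand) and Galnt12 (chromosome 4 from 47091909 to 47123070, plus strand) have 10 coding exons each, Galnt7 (chromosome 8 from 57523828 to 57653032, minus strand) has 12, and Galnt1, on chromosome 18, has 11. No pair of the set shares a chromosome.

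The libraries were first compared as a whole. FPKM sums were 518482 to 639537, and between 11392 and 11663 genes reached 1 FPKM in a library. Read counts are not in the tables, so no counting interval is given. Relative depth, read from how finely values under 0.15 FPKM were spaced, was 1.18 to 1.45 in the mutant libraries and 1.05 in the wild-type female, with the wild-type male set to 1. St6galnac6 was at 218 and 232 FPKM (male and female, as in all pairs of values that follow) in St6galnac6-/- libraries and 368 and 343 FPKM in wild-type, and B3gnt7 was at 68.8 and 142 FPKM in B3gnt7-/- and 215 and 189.8 FPKM in wild-type, so transcript of both targeted genes remained. With the deleted part unknown, these levels do not check the deletion itself. A substitution such as D116A is not checked by a transcript level. Epithelial markers were abundant, with a sum of 8 markers of 9118 to 12039 FPKM. The B3gnt7-/- female library stood apart in stromal and endothelial markers, with a sum of 25.3 FPKM over 6 genes against 3.86 to 4.96 FPKM in the other 7 libraries. Most of it was Dcn (18.9 FPKM), and Col3a1 (3.61 FPKM) and Col1a1 (1.58 FPKM) were also highest there. Pecam1 (1.16 FPKM) was within the range of the other libraries. Cdh5 was listed at 0 there, as in every library but the wild-type male. Summed markers of T cells and intraepithelial lymphocytes were at 3.71 to 12.8 FPKM, of myeloid cells at 2.12 to 7.64 FPKM and of B and plasma cells at 0.111 to 0.836 FPKM.

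None of the 10 enzymes passed the test in any comparison with wild-type. Tests were limma fits on log2(FPKM + 1) over all tested genes, with genotype and sex as terms and Benjamini-Hochberg adjustment at 0.05. Among all tested genes the share called was 0.0867% in St6galnac6-/-, 0.078% in B3galt5D116A and 0.052% in B3gnt7-/-, so a count of 0 in 10 does not set the members apart from other genes. At an unadjusted p under 0.05 stood 1, 2 and 1 members, where the shares of all tested genes were 9.04%, 11.7% and 7.17%. The mean of the 3 mutants against wild-type called 0 members and 0.182% of all genes, with 1 member and 11.3% of genes at an unadjusted p under 0.05. The test for any genotype difference called 0 members and 0.0867% of all genes, with 1 member and 6.68% of genes at an unadjusted p under 0.05. The 3 comparisons share the wild-type libraries, and their values are therefore set side by side and not counted as separate evidence.

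The 10 enzymes spanned a wide range of levels, with Galnt7 at the top and Gcnt1 at the bottom. By mean FPKM over the 8 libraries Galnt7 came first (62.4 ± 7.12 FPKM, SD, n = 8), followed by Galnt12 (54.1 ± 5.63), Galnt4 (52.0 ± 4.61), Gcnt3 (48.9 ± 13.5), C1galt1c1 (37.8 ± 2.96), C1galt1 (37.5 ± 4.08), Galnt1 (25.9 ± 1.81), Galnt3 (17.9 ± 1.20), B3gnt6 (9.09 ± 2.41) and Gcnt1 (5.45 ± 1.08). C1galt1 was above Galnt1, Galnt1 above Galnt3 and Galnt3 above B3gnt6 in 8 of 8 libraries. Galnt12 was above Galnt4 in 6 libraries and C1galt1c1 above C1galt1 in 5, so these neighbours did not separate beyond their spread.

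**Figure D1:**
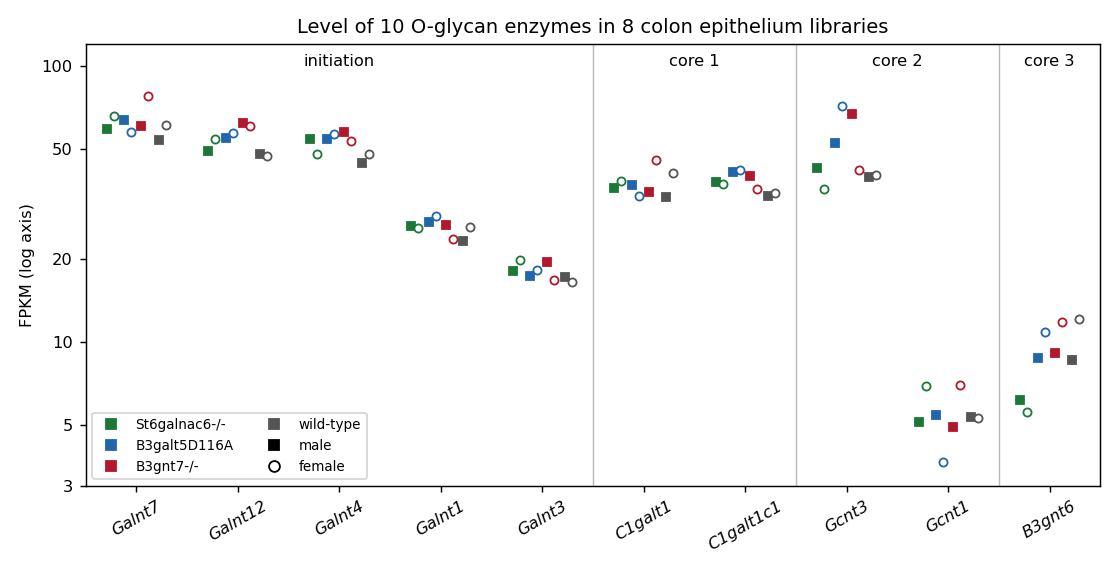
FPKM of each of the 10 enzymes (log axis) in the 8 libraries, grouped by step of O-glycan synthesis, with squares for male and open circles for female libraries and genotype by colour. Galnt7, Galnt12 and Galnt4 are the highest of the initiation enzymes. In the core 3 panel the 2 St6galnac6-/- points of B3gnt6, at 6.12 and 5.58 FPKM, lie below the other 6. Of all tested genes, 23.6% had both St6galnac6-/- libraries below both wild-type libraries.

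Variation between libraries was uneven within the set. On the log2(FPKM + 1) scale the SD over 8 libraries was 0.0903 for Galnt3, 0.0982 for Galnt1, 0.110 for C1galt1c1 and 0.128 for Galnt4, all below the median of 0.163 over all tested genes. C1galt1 (0.147), Galnt12 (0.148) and Galnt7 (0.155) were also below it. Gcnt1 (0.246), Gcnt3 (0.365) and B3gnt6 (0.366) were above, and 93.1% of tested genes had a smaller SD than either of the last 2 enzymes. Within the set, the core 2 and core 3 members were thus the more variable ones. Gcnt1 and B3gnt6 were also the lowest members in level. Outside the set, Galnt5 (SD 0.342, mean 8.48 FPKM) and Galnt11 (0.284, 7.89 FPKM) were above the median too, and Galnt2 (0.127, 9.36 FPKM) was below it. Pathway step and level were not separated here.

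B3gnt6, the core 3 synthase, was lowest in St6galnac6-/-. It was at 6.12 and 5.58 FPKM in St6galnac6-/- libraries, 8.73 and 10.9 FPKM in B3galt5D116A, 9.07 and 11.7 FPKM in B3gnt7-/- and 8.58 and 12.1 FPKM in wild-type. Both St6galnac6-/- libraries lay below the other 6, and the other genotypes overlapped one another. Of all tested genes, 23.6% had both St6galnac6-/- libraries below both wild-type libraries. The share with both below all other 6 was not computed. The mean was 5.85 ± 0.383 FPKM in St6galnac6-/- and 10.3 ± 2.45 FPKM in wild-type (SD, n = 2 each). Sex by sex, the ratio of St6galnac6-/- to wild-type was 0.713 in males and 0.463 in females. The log2 difference was -0.71 (SE 0.16), with unadjusted p = 0.0028 and limma adjusted p = 0.242, so it did not pass over all genes. Leaving out a St6galnac6-/- or wild-type library gave -0.94 to -0.47. Leaving out a library of another genotype cannot change this difference, so it was no check of it. In B3galt5D116A the log2 difference was -0.06 (SE 0.16, limma adjusted p = 0.901) and in B3gnt7-/- it was 0.02 (SE 0.16, limma adjusted p = 0.987). In the same libraries the sum of 10 goblet cell markers was 10983 and 13188 FPKM in St6galnac6-/- and 7405 and 7133 FPKM in wild-type. Within it, Muc2 was at 1045 and 1463 FPKM against 1399 and 1250 FPKM. Tff3 was at 714 and 729 FPKM against 817 and 695 FPKM, so both overlapped between these genotypes. The other goblet markers were higher in both St6galnac6-/- libraries than in both wild-type libraries, as were 24.1% of tested genes. The sum of 6 absorptive colonocyte markers was 7698 and 6077 FPKM in St6galnac6-/- and 9159 and 9003 FPKM in wild-type. In bulk RNA, fewer cells of a type and less RNA per cell cannot be told apart, and the part of cell composition in the B3gnt6 difference was not tested.

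Gcnt3, the mucin-type branching enzyme of core 2 and core 4, was the most variable abundant member. It was at 42.5 and 35.9 FPKM in St6galnac6-/- libraries, 52.5 and 71.6 FPKM in B3galt5D116A, 67.1 and 42.0 FPKM in B3gnt7-/- and 39.7 and 40.1 FPKM in wild-type. The B3galt5D116A female and B3gnt7-/- male libraries were high, the B3galt5D116A male library was intermediate, and the other 5 lay between 35.9 and 42.5 FPKM. Against wild-type of the same sex, Gcnt3 was 1.32 and 1.79 times as high in B3galt5D116A, 1.69 and 1.05 times in B3gnt7-/- and 1.07 and 0.895 times in St6galnac6-/-. The log2 difference was 0.61 (SE 0.24, limma adjusted p = 0.409) in B3galt5D116A, 0.40 (SE 0.24, limma adjusted p = 0.789) in B3gnt7-/- and -0.03 (SE 0.24, limma adjusted p = 0.984) in St6galnac6-/-. A single library decided much of these values. The difference in B3galt5D116A was 0.24 without the female library and 0.98 without the male. In B3gnt7-/- it was 0.77 without the female library and 0.04 without the male.

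The libraries with high Gcnt3 were those with the most Car1, a carbonic anhydrase of surface colonocytes. Car1 was at 6916 and 5241 FPKM in St6galnac6-/- libraries, 8296 and 16569 FPKM in B3galt5D116A, 12186 and 5447 FPKM in B3gnt7-/- and 7997 and 7792 FPKM in wild-type. Car1 made up most of the absorptive marker sum. The other 5 absorptive markers together were at 782 and 835 FPKM in St6galnac6-/- libraries, 1069 and 1069 FPKM in B3galt5D116A, 961 and 1228 FPKM in B3gnt7-/- and 1162 and 1212 FPKM in wild-type, which was not the order of Gcnt3 (this sum without Car1 was added after seeing the data). The part of colonocyte maturity or position in the Gcnt3 values was not tested.

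Gcnt1, the other core 2 enzyme of the set, was its lowest member. It was at 5.14 and 6.93 FPKM in St6galnac6-/- libraries, 5.41 and 3.65 FPKM in B3galt5D116A, 4.89 and 6.96 FPKM in B3gnt7-/- and 5.34 and 5.30 FPKM in wild-type. Every mutant had 1 library below wild-type, and the groups overlapped throughout. The log2 differences were 0.14, -0.21 and 0.12 (SE 0.23 each) in St6galnac6-/-, B3galt5D116A and B3gnt7-/-. Gcnt1 was lowest in the B3galt5D116A female library, where Gcnt3 was highest.

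C1galt1, the core 1 synthase, was at 36.2 and 38.1 FPKM in St6galnac6-/- libraries, 37.1 and 33.8 FPKM in B3galt5D116A, 34.7 and 45.5 FPKM in B3gnt7-/- and 33.4 and 41.0 FPKM in wild-type. No genotype stood apart, and the log2 differences were 0.0039, -0.06 and 0.10 (SE 0.15 each) in St6galnac6-/-, B3galt5D116A and B3gnt7-/-. The highest value came from the B3gnt7-/- female library, which was also highest for Galnt7 and Gcnt1. This library was the one highest in summed stromal, T cell and myeloid markers. Without it the B3gnt7-/- difference was -0.05 for C1galt1, 0.11 for Galnt7 and -0.12 for Gcnt1.

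C1galt1c1, the chaperone of C1galt1, was at 38.1 and 37.4 FPKM in St6galnac6-/- libraries, 41.2 and 41.8 FPKM in B3galt5D116A, 39.8 and 35.7 FPKM in B3gnt7-/- and 33.9 and 34.7 FPKM in wild-type. All 6 mutant libraries lay above both wild-type libraries, as for 7.23% of all tested genes. The log2 difference was 0.27 in B3galt5D116A (SE 0.11, unadjusted p = 0.0424, limma adjusted p = 0.414), 0.14 in each of the other mutants, and 0.18 for the mean of the 3 mutants (SE 0.09, limma adjusted p = 0.495). Of all tested genes, 11.7% had an unadjusted p under 0.05 in the limma test of B3galt5D116A. With each library left out in turn, the C1galt1c1 difference in B3gnt7-/- ran from 0.055 to 0.22.

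None of the 5 initiation enzymes passed. Galnt12, a GalNAc-transferase well expressed in the digestive tract, was at 49.2 and 54.1 FPKM in St6galnac6-/- libraries, 54.7 and 57.0 FPKM in B3galt5D116A, 62.1 and 60.3 FPKM in B3gnt7-/- and 47.7 and 47.3 FPKM in wild-type. All 6 mutant libraries lay above both wild-type libraries, which were close together. Of all tested genes, 7.23% were higher in all 6. Its log2 difference was 0.12, 0.23 and 0.36 (SE 0.11 each) in St6galnac6-/-, B3galt5D116A and B3gnt7-/-. In B3gnt7-/- the unadjusted p was 0.0130 and the limma adjusted p = 0.562, and the difference was 0.41 without the B3gnt7-/- female library and 0.31 without the male. In St6galnac6-/- the Galnt12 difference was 0.051 without the female library and 0.18 without the male. For the mean of the 3 mutants it was 0.23 (SE 0.09, unadjusted p = 0.0328, limma adjusted p = 0.402). An unadjusted limma p under 0.05 was reached by 7.17% of tested genes in B3gnt7-/- and 11.3% for the mean of the mutants.

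Galnt4, which can act on peptides that already carry GalNAc, was at 54.2 and 48.03 FPKM in St6galnac6-/- libraries, 54.5 and 56.5 FPKM in B3galt5D116A, 57.3 and 53.2 FPKM in B3gnt7-/- and 44.6 and 47.88 FPKM in wild-type. The 6 mutant libraries were again all higher (7.23% of tested genes), but the St6galnac6-/- female library was 1.003 times the wild-type female, an equal level. The log2 difference was 0.14, 0.26 and 0.25 (SE 0.12 each) in St6galnac6-/-, B3galt5D116A and B3gnt7-/-. Of 5089 exon bases of Galnt4, 420 are also annotated as exon of Poc1b, a centriole protein gene, so some reads could have been assigned to either. Poc1b itself was at 12.6 to 16.3 FPKM.

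Galnt7, which prefers glycopeptides that already carry GalNAc, was at 58.8 and 66.0 FPKM in St6galnac6-/- libraries, 63.9 and 57.5 FPKM in B3galt5D116A, 60.7 and 77.4 FPKM in B3gnt7-/- and 53.9 and 60.9 FPKM in wild-type. The B3gnt7-/- female library was the highest, and every mutant overlapped wild-type. The log2 differences were 0.12, 0.08 and 0.26 (SE 0.14 each) in St6galnac6-/-, B3galt5D116A and B3gnt7-/-. Galnt1, a broadly expressed member, ran from 23.2 to 28.7 FPKM, highest in B3galt5D116A (27.2 and 28.7 FPKM, against 23.2 and 26.1 FPKM in wild-type). Galnt3, known for glycosylating the phosphate hormone FGF23, ran from 16.5 to 19.7 FPKM and differed by at most 0.16 on the log2 scale between any mutant and wild-type (SE 0.12).

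**Figure D2:**
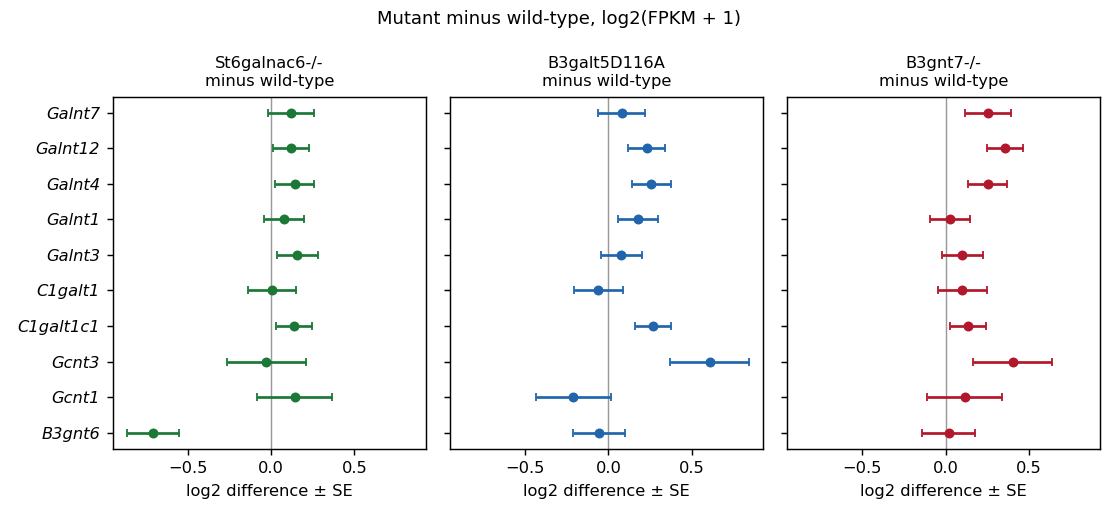
Log2 difference (mutant minus wild-type, log2(FPKM + 1), with its SE from the limma fit of all 8 libraries) of each enzyme in the 3 mutants. B3gnt6 in St6galnac6-/- (-0.71) and Gcnt3 in B3galt5D116A (0.61) lie farthest from 0, and no difference passed the adjusted threshold.

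The direction of the small differences was mostly upward. Log2 differences were positive for 8 of 10 members in St6galnac6-/-, 7 in B3galt5D116A and 10 in B3gnt7-/-, with medians of 0.12, 0.13 and 0.13. Over all tested genes 50.7%, 50.3% and 47.9% were positive, with medians of 0.0030, 0.0012 and -0.0095. Within both sexes separately, 5 members were higher than wild-type in St6galnac6-/- (background 30.2% of tested genes), 6 in B3galt5D116A (31.4%) and 7 in B3gnt7-/- (25.4%). In both sexes 1 member was lower in St6galnac6-/- (29.2%), and 0 were in B3galt5D116A (31.2%) and B3gnt7-/- (28.7%). The sexes went opposite ways for 4 members in St6galnac6-/-, 4 in B3galt5D116A and 3 in B3gnt7-/-. The wild-type male library, which enters all 3 comparisons, was the lowest of the 8 for 5 members (Galnt1, Galnt4, Galnt7, C1galt1 and C1galt1c1). The wild-type female was the lowest for 2 (Galnt3 and Galnt12). Relative depth was also lowest in the wild-type male library, and the part of this single library in the upward direction was not tested. Both mutant libraries exceeded both wild-type libraries for 4 members in St6galnac6-/- (background 24.1% of tested genes), 6 in B3galt5D116A (26%) and 4 in B3gnt7-/- (16%). Both lay below for B3gnt6 alone in St6galnac6-/- (23.6%), and for 0 members in B3galt5D116A (25.3%) and B3gnt7-/- (18.6%). All 6 mutant libraries exceeded both wild-type libraries for 3 members, Galnt4, Galnt12 and C1galt1c1, where 7.23% of tested genes did, and lay below for 0, where 8.32% did. The goblet marker sum was likewise higher in all 6 mutant libraries, at 9955 to 13188 FPKM against 7133 and 7405 FPKM in wild-type, and all 10 goblet markers were above 10 FPKM in every library. Of these, 6 (Clca1, Fcgbp, Spink4, Reg4, Zg16 and Spdef) were higher in all 6 mutant libraries, and 4 (Muc2, Tff3, Agr2 and Atoh1) overlapped between mutants and wild-type. The sum of 5 proliferation markers was 94.7 to 214 FPKM in mutants and 85.6 and 93.8 FPKM in wild-type. Their part in the small upward differences was not tested.

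**Figure D3:**
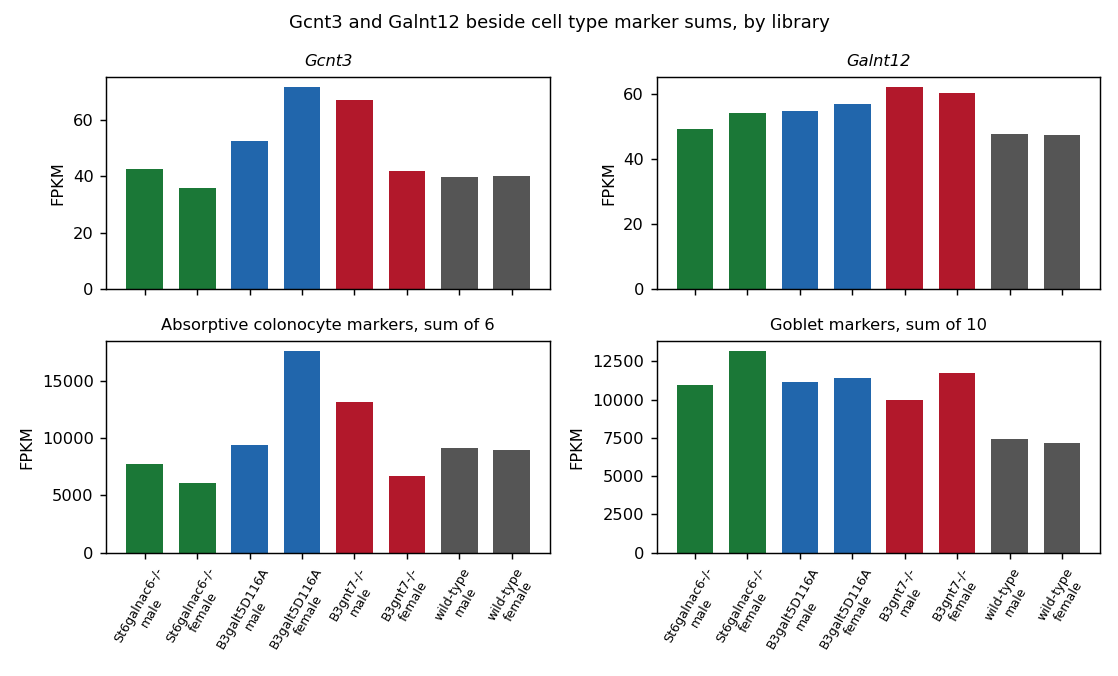
FPKM by library of Gcnt3 above the sum of 6 absorptive colonocyte markers (left), and of Galnt12 above the sum of 10 goblet cell markers (right), with genotype by colour and axes from 0. Gcnt3 and the absorptive sum, which is mostly Car1, are both highest in the B3galt5D116A female and B3gnt7-/- male libraries. Galnt12 and the goblet sum are both lowest in the 2 wild-type libraries. Of all tested genes, 7.23% were higher in all 6 mutant libraries. Their orders differ among the mutants, where Galnt12 is highest in the B3gnt7-/- male library (62.1 FPKM) and the goblet sum is lowest there (9955 FPKM).

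The balance of core enzymes was read from ratios of FPKM, which is a level per transcript length, within each library. These ratios are scores of chosen genes and are given without a test. The core 3 to core 1 ratio (B3gnt6 over C1galt1) was 0.169 and 0.146 in St6galnac6-/- libraries, 0.235 and 0.321 in B3galt5D116A, 0.261 and 0.258 in B3gnt7-/- and 0.257 and 0.294 in wild-type. The 2 St6galnac6-/- libraries were the lowest of the 8, and the others overlapped. On the log2 scale the ratio averaged -2.67 ± 0.15 in St6galnac6-/- and -1.86 ± 0.14 in wild-type (SD, n = 2 each), a difference of -0.80. An SD of 2 libraries is a poor measure of spread. The ratio reuses the B3gnt6 values given above and is not separate evidence. In every library C1galt1 transcript exceeded B3gnt6 transcript at least 3-fold per length.

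The ratio of core 2 branching to core 1 (Gcnt1 and Gcnt3 together over C1galt1) was 1.32 and 1.12 in St6galnac6-/- libraries, 1.56 and 2.22 in B3galt5D116A, 2.07 and 1.08 in B3gnt7-/- and 1.35 and 1.11 in wild-type. Both B3galt5D116A libraries were above both wild-type libraries, whereas the B3gnt7-/- libraries lay on either side of them. The log2 difference was 0.61 in B3galt5D116A, where the log2 ratio averaged 0.90 ± 0.36, against 0.29 ± 0.20 in wild-type. With 1 library left out that difference ran from 0.35 to 0.86, the lower value being without the B3galt5D116A female library. In B3gnt7-/- it was 0.29 with an SD of 0.67 between its own 2 libraries, so it did not exceed the spread.

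Gcnt3 was well above Gcnt1 in every library. Gcnt4, outside the set, averaged 2.26 FPKM and is not counted in these ratios. The ratio of Gcnt3 to Gcnt1 was 8.28 and 5.18 in St6galnac6-/- libraries, 9.69 and 19.6 in B3galt5D116A, 13.7 and 6.03 in B3gnt7-/- and 7.43 and 7.56 in wild-type. The wild-type pair was almost equal while each mutant pair was wide, and only B3galt5D116A had both libraries above wild-type. C1galt1c1 over C1galt1 stayed between 0.785 and 1.23 in the 8 libraries, so chaperone and synthase were at like levels throughout.

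**Figure D4:**
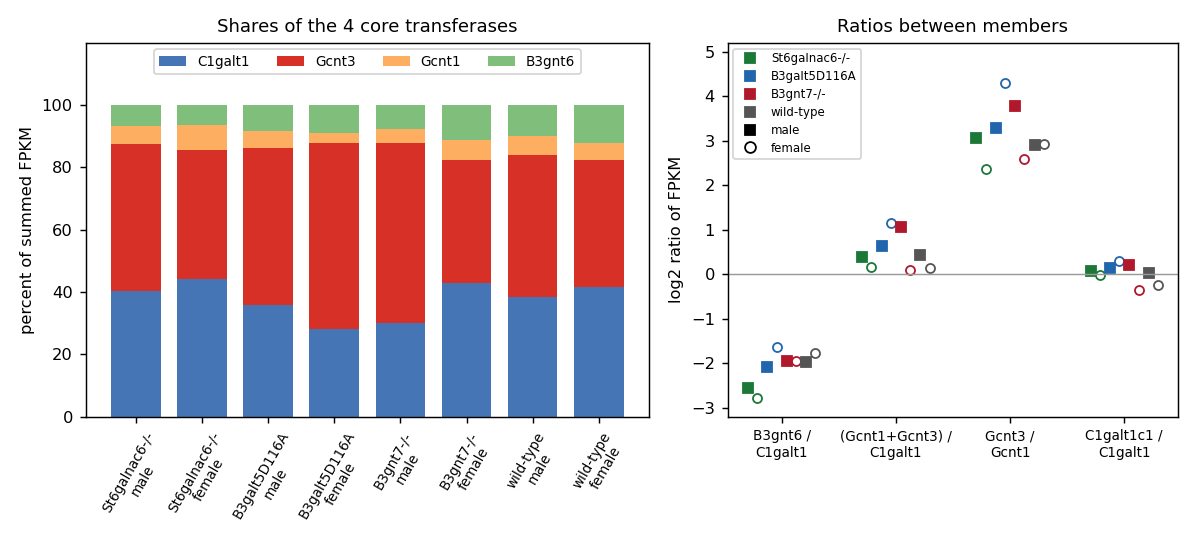
Left, share of each of the 4 core transferases in their summed FPKM, by library. Right, log2 ratios between members, with squares for male and open circles for female libraries. The B3gnt6 share is smallest in the 2 St6galnac6-/- libraries (6.81% and 6.45%), and the Gcnt3 share is largest in the B3galt5D116A female (59.7%) and B3gnt7-/- male (57.9%) libraries.

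As shares of the summed FPKM of the 4 core transferases, B3gnt6 held 6.81% and 6.45% in St6galnac6-/- libraries, 8.42% and 9.06% in B3galt5D116A, 7.83% and 11.1% in B3gnt7-/- and 9.87% and 12.2% in wild-type. C1galt1 held 28.2% to 44.0% over the 8 libraries and Gcnt3 39.5% to 59.7%, and the 2 libraries lowest in the C1galt1 share were the 2 highest in the Gcnt3 share. The summed level was 89.9 and 86.5 FPKM in St6galnac6-/- libraries, 104 and 119.97 FPKM in B3galt5D116A, 115.8 and 106 FPKM in B3gnt7-/- and 87.0 and 98.4 FPKM in wild-type. Both B3galt5D116A and both B3gnt7-/- libraries were above both wild-type libraries in this sum, and the St6galnac6-/- libraries were not.

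The initiation enzymes of the set carried most of the Galnt family transcript. Galnt1, Galnt3, Galnt4, Galnt7 and Galnt12 together held 64.7% to 70.6% of the summed FPKM of 19 family members, with 67.9% and 67.3% in St6galnac6-/-, 67.4% and 70.6% in B3galt5D116A, 68.5% and 66.7% in B3gnt7-/- and 64.7% and 66.4% in wild-type. Galnt7 alone held 18.4% to 22.3% and Galnt12 15.8% to 18.8%. Among members outside the set, Galnt10 averaged 38.3 FPKM and Galnt6 36.3 FPKM. The family sum was 304 and 317 FPKM in St6galnac6-/- libraries, 323 and 308 FPKM in B3galt5D116A, 330 and 347 FPKM in B3gnt7-/- and 288 and 299 FPKM in wild-type, higher in all 6 mutant libraries.

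Male and female libraries were then compared. Over the 4 genotypes limma called 0 of the 10 members and 0.052% of all tested genes, with 0 members and 1.66% of genes at an unadjusted p under 0.05. No member separated the 4 male from the 4 female libraries, where 0.485% of tested genes were higher in every male library and 0.485% lower. The largest log2 difference was that of B3gnt6, -0.24 (SE 0.11, unadjusted p = 0.0685, limma adjusted p = 0.9998), with 8.13 ± 1.35 FPKM in males and 10.1 ± 3.03 FPKM in females (SD, n = 4 each). Male over female ratios of B3gnt6 were 1.10 in St6galnac6-/-, 0.803 in B3galt5D116A, 0.772 in B3gnt7-/- and 0.712 in wild-type. For Gcnt3 they were 1.19 in St6galnac6-/-, 0.733 in B3galt5D116A, 1.60 in B3gnt7-/- and 0.990 in wild-type. Each ratio comes from 1 library per sex, and the difference of the sex ratio between genotypes was not tested.

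The rest of the pathway was described from lists. Of 17 other GalNAc-transferases and Gcnt enzymes 8 reached 1 FPKM, and 0 passed in any comparison. Named by smallest p for any genotype difference, Galnt11 was at 6.46 and 5.72 FPKM in St6galnac6-/- libraries, 7.14 and 7.33 FPKM in B3galt5D116A, 12.0 and 8.36 FPKM in B3gnt7-/- and 7.68 and 8.43 FPKM in wild-type. Galnt5, another GalNAc-transferase, was at 8.98 and 11.7 FPKM in St6galnac6-/- libraries, 9.15 and 5.98 FPKM in B3galt5D116A, 8.19 and 11.1 FPKM in B3gnt7-/- and 5.63 and 7.15 FPKM in wild-type. Gcnt2, which makes the I branch of poly-lactosamine, ran from 2.76 to 4.58 FPKM. Median log2 differences of the list were 0.0017 in St6galnac6-/-, -0.02 in B3galt5D116A and 0.19 in B3gnt7-/-.

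Of 13 genes that supply or transport the sugar donors 12 were tested and 0 passed, with medians of -0.09, -0.04 and -0.10 in St6galnac6-/-, B3galt5D116A and B3gnt7-/-. Gnpnat1, an acetyltransferase on the route to UDP-GlcNAc, was at 50.1 and 46.9 FPKM in St6galnac6-/- libraries, 45.5 and 50.1 FPKM in B3galt5D116A, 56.5 and 54.7 FPKM in B3gnt7-/- and 61.5 and 59.7 FPKM in wild-type. All 6 mutant libraries were lower, as for 8.32% of all tested genes. The log2 difference was -0.26 for the mean of the 3 mutants (SE 0.09, limma adjusted p = 0.377). Uap1l1 was at 14.9 and 14.9 FPKM in St6galnac6-/- libraries, 10.9 and 11.8 FPKM in B3galt5D116A, 10.5 and 11.8 FPKM in B3gnt7-/- and 16.4 and 13.1 FPKM in wild-type. Galk1, the galactokinase, ran from 9.38 to 19.4 FPKM.

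Of 7 enzymes that extend or sialylate core structures 5 were tested and 0 passed, with medians of 0.17, 0.09 and 0.17 in St6galnac6-/-, B3galt5D116A and B3gnt7-/-. St6galnac2, which sialylates the inner GalNAc, was at 47.8 and 46.8 FPKM in St6galnac6-/- libraries, 46.9 and 44.9 FPKM in B3galt5D116A, 47.6 and 46.6 FPKM in B3gnt7-/- and 36.9 and 41.0 FPKM in wild-type. All 6 mutant libraries were higher, as for 7.23% of all tested genes. The log2 difference was 0.26 for the mean of the 3 mutants (SE 0.09, limma adjusted p = 0.372). B3gnt3, which extends core 1, was at 99.3 to 123 FPKM and also higher in all 6 mutant libraries (again 7.23% of tested genes). St3gal1, which sialylates core 1, ran from 2.72 to 6.62 FPKM and was highest in the wild-type male library.

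Of 5 acceptor mucins found, all were tested and 0 passed, with medians of -0.10, 0.09 and 0.28 in St6galnac6-/-, B3galt5D116A and B3gnt7-/-. Muc1, a membrane mucin, was at 1.12 and 1.56 FPKM in St6galnac6-/- libraries, 2.65 and 1.73 FPKM in B3galt5D116A, 1.48 and 5.199 FPKM in B3gnt7-/- and 3.44 and 4.47 FPKM in wild-type. Muc4 was at 18.7 to 32.3 FPKM and Muc20 at 2.26 to 4.67 FPKM. Both are membrane mucins, and Muc20 was higher in all 6 mutant libraries than in wild-type. Muc13, a further membrane mucin, was lower in all 6, at 577 and 708 FPKM in St6galnac6-/- libraries, 693 and 669 FPKM in B3galt5D116A, 628 and 619.5 FPKM in B3gnt7-/- and 813 and 744 FPKM in wild-type. Of all tested genes, 7.23% were higher and 8.32% lower in all 6 mutant libraries.

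Genes with the most similar profile over the 8 libraries were sought for the 4 core transferases, by root mean square difference of centred log2(FPKM + 1) values. The 3 nearest to C1galt1 were Fbxo3 (0.024), Sec16b (0.036) and Ago4 (0.037). The nearest to B3gnt6 were D330045A20Rik (0.119), Rhbdl3 (0.158) and Inca1 (0.167), against its own SD of 0.366. These 3 averaged 1.92, 1.04 and 1.49 FPKM, near the limit of 1 FPKM for testing. The nearest to Gcnt1 were Atp2a3 (0.044), Tnrc6c (0.061) and Tecpr1 (0.068). Those to Gcnt3 were Tpm2 (0.090), Gstm3 (0.110) and Me1 (0.118), against its own SD of 0.365. Within the set, the member nearest to C1galt1 was Galnt7 (0.071, the 79th nearest of all tested genes). For B3gnt6 the nearest other member, C1galt1, ranked 1685, and for Gcnt3 the nearest, Galnt4, ranked 708. The nearest genes were picked from 11537 tested genes over 8 libraries. Whether they are closer than such a search gives by chance was not tested.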

How the data were processed

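RNA came from the miRNeasy Micro Kit, and the TruSeq stranded mRNA kit made the libraries, per the labels' protocols. The submitters' processing notes list build mm10 with Cuffdiff 2.2.1, SAMtools 0.1.18, TopHat2 2.1.1 and Bowtie2 2.2.8, without their roles. The authors deposited 1 FPKM value per gene symbol and library, per the file headers. The annotation, the handling of strand and the scaling between libraries are not given in the sources used here.

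Genes averaging 1 FPKM or more across the 8 libraries, 11537 of them, entered the test on log2(FPKM + 1), a pseudocount of 1, which understates changes of low genes. limma 3.58.1 in R 4.3.3 (trend=TRUE) was fitted to all 8 libraries with genotype and sex as terms, leaving 3 residual and 4.02 prior degrees of freedom, and was two-sided with Benjamini-Hochberg adjustment over all tested genes at 0.05.

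The members and lists were chosen with earlier results of these data known. All members are named. From other lists, genes that passed would be named, otherwise up to 3 with the smallest p for any genotype difference. The pathway lists held 17, 13, 7 and 9 genes; Galnt17 was found under its synonym Wbscr17, and 4 mucin symbols were not matched. Genes singled out beyond these (Car1, Dcn, Col3a1, Col1a1, Pecam1, Cdh5, Galnt2, Galnt6, Galnt10, Gcnt4, Muc2, Tff3, Clca1, Fcgbp, Spink4, Reg4, Zg16, Spdef, Agr2, Atoh1, Muc13) were chosen after their values were seen. Exons were taken from GENCODE M21. Alternatives left out each library, dropped the sex term or the other genotypes, used quantile normalization or median centring, set the pseudocount to 0.1 or 5, and tested every gene or those averaging 5 FPKM or more.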

Additional observations from a re-analysis of the deposited data

How the results depend on the processing

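No member passed the limma threshold under any alternative run, and the smallest adjusted p of a member over these was 0.119, for Gcnt3 in B3galt5D116A with only the genotypes compared. Counts over all genes did move. Without a filter, limma called 24 genes in St6galnac6-/-, 30 in B3galt5D116A, 12 in B3gnt7-/-, 12 for the mean of the mutants and 24 for any genotype difference, and with a mean of at least 5 FPKM it called 3 in B3gnt7-/-. Quantile normalization gave 5 in St6galnac6-/- and 5 for any genotype difference. Without the sex term the counts were 23 in St6galnac6-/-, 16 in B3galt5D116A and 40 for the mean of the mutants. With only the genotypes compared they were 134 in St6galnac6-/-, 122 in B3galt5D116A and 28 in B3gnt7-/-. The cause was not tested. Leaving out each library in turn gave 2 to 65 genes in St6galnac6-/-, 3 to 15 in B3galt5D116A, 3 to 53 in B3gnt7-/-, 2 to 80 for the mean of the mutants, 1 to 77 for any genotype difference and 5 to 6 between males and females. Pseudocounts of 0.1 and 5 and median centring moved no such count beyond 1.5 times.

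Of 50 log2 differences of members, 22 changed sign with some library left out. Of the 28 that kept it, 19 moved by over 1.5 times. Under the other settings 1 changed sign, C1galt1 in St6galnac6-/-, at -0.0093 with median centring. For log2 differences, median centring, the pseudocount of 5, both filters and the fit of only the genotypes compared were added after seeing the data. With a library left out, the ranges of the 22 in St6galnac6-/- were -0.024 to 0.18 for Galnt1, -0.085 to 0.093 for C1galt1, -0.049 to 0.33 for Gcnt1 and -0.11 to 0.056 for Gcnt3. In B3galt5D116A they were -0.11 to 0.27 for Galnt7, -0.25 to 0.13 for C1galt1, -0.57 to 0.15 for Gcnt1 and -0.19 to 0.080 for B3gnt6. In B3gnt7-/- they were -0.094 to 0.14 for Galnt1, -0.024 to 0.22 for Galnt3, -0.050 to 0.25 for C1galt1, -0.12 to 0.35 for Gcnt1 and -0.12 to 0.16 for B3gnt6. For the mean of the mutants they were -0.0097 to 0.20 for Galnt1, -0.074 to 0.10 for C1galt1 and -0.11 to 0.14 for Gcnt1. Between males and females they were -0.069 to 0.041 for Galnt1, -0.044 to 0.064 for Galnt3, -0.015 to 0.076 for Galnt4, -0.0097 to 0.052 for C1galt1c1, -0.27 to 0.034 for Gcnt1 and -0.073 to 0.30 for Gcnt3. The sex term pairs libraries of the same sex across genotypes. No paired analysis by replicate number was possible because the labels give none. A genotype left with 1 library is assumed to vary like the others, and with no read counts the precision of the low members Gcnt1 and B3gnt6 is unknown.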
